A study of Mus musculus with 16 samples.

Results

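Poldip3, Eif4h, Dnajc5 and Sort1 are mouse genes whose mRNA splicing has been described as dependent on TDP-43, the RNA-binding protein encoded by Tardbp. They were chosen by their GENCODE M21 symbol, 4 of the 55536 annotated genes in the deposited tables, and hold 20 of the 141862 transcripts and 30 of the 125520 splicing nodes, the exon parts for which inclusion was given. RNA-seq was done on CD8+ T cells of OT-1 Tg C57BL/6J mice, whose transgenic receptor sees the ovalbumin peptide SIINFEKL. The cells were electroporated with Cas9 and either a scrambled guide, here Control gRNA, or a guide that cuts Tardbp, here Tardbp gRNA, then moved into C57BL/6J recipients, and given SIINFEKL with the agonist antibodies anti-OX40 and anti-41BB. Spleen and lymph node CD8+ T cells were sorted after 4 days per the labels, with 8 libraries per group. Both groups therefore carried the same receptor, Cas9 and the same antigen with costimulation, and differed by design in the guide. The deposited sex letter was M for 3 and F for 5 Control gRNA libraries, and M for 5 and F for 3 Tardbp gRNA libraries. Per the study's methods the donor cells were divided between the guides before electroporation and each library came from its own recipient, so the edited cells are a mixed pool and not a clone, and recipients of a group may share donor cells.

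TDP-43 binds UG-rich stretches of RNA, mostly in introns, and promotes or represses the exons near them. POLDIP3, also called SKAR, joins spliced mRNA and is tied to mRNA export and S6 kinase signalling, and skipping of an internal coding exon of it is a widely used readout of TDP-43 loss. EIF4H is a cofactor of the helicase EIF4A in the start of translation, and its mRNA exists with and without a short in-frame exon. DNAJC5, the cysteine string protein, is a co-chaperone of HSC70 in vesicle release. SORT1, sortilin, is a sorting receptor that takes up progranulin, and TDP-43 represses an extra exon in its mRNA.

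The exons of Poldip3 and Eif4h that were alternative in these cells are shown because the results turn on them. Both sit inside the coding sequence, and both have a length that is a multiple of 3, so that skipping them keeps the reading frame. The sequences were read 5′ to 3′ on the transcript strand from the GENCODE M21 transcripts, with the exon in capitals between 20 bases of each neighbouring exon. The Poldip3 exon (87 bases, node 4, exon 3 of 9 in Poldip3-201) is at chr15:83137468-83137554 in GRCm38, on the minus strand.
Poldip3-201, exon held: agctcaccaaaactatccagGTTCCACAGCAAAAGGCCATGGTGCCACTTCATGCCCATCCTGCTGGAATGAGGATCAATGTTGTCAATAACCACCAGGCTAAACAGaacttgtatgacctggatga
Poldip3-202, exon skipped: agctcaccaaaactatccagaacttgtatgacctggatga
The Eif4h exon (60 bases, node 6, exon 5 of 7 in Eif4h-205) is at chr5:134624441-134624500 in GRCm38, on the minus strand.
Eif4h-205, exon held: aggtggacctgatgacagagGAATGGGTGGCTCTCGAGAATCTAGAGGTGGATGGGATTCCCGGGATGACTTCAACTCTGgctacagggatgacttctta
Eif4h-201, exon skipped: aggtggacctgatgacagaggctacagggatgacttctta
Neither exon holds TGTGT or GTGTG, the DNA letters of a short UG repeat searched on the transcript strand with overlapping matches counted. Across the series 20.5% of 95997 core exons hold one of them, and 3 of the 16 core exons of these genes do, Poldip3 node 8 with 6 matches and Eif4h nodes 3 and 5 with 1 each. Introns were not searched here. The 87-base Poldip3 exon has 49.4% GC and the 60-base Eif4h exon 53.3%.

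The libraries held 29714709 to 48164083 read pairs and 56016533 to 94801105 estimated counts in annotated genes. Tardbp, the targeted gene, lay at 171.8 to 206.9 CPM (counts relative to the library total after TMM scaling) in Control gRNA, against 110.4 to 147.2 in Tardbp gRNA, and the libraries of the groups did not overlap (edgeR quasi-likelihood log2 fold change -0.51, SE 0.0558, adjusted p = 8.07e-07). The deposited RNA concentration, given with no unit, was 34.9 to 197.1 in Control gRNA, against 10.1 to 24.0 in Tardbp gRNA. Since its ranges do not overlap, RNA concentration and guide cannot be told apart in any result here. The summed level of 6 CD8 T cell markers was 3408 to 4271 CPM in Control gRNA, against 5211 to 6697 CPM in Tardbp gRNA, and Cd4 stayed at or below 0.601 CPM in both. The 5 B cell markers summed to 374 to 460 CPM in Control gRNA, against 541 to 708 CPM in Tardbp gRNA, nearly all of it Ighm. Without Ighm the other 4 summed to 6.85 to 13.1 and 7.28 to 18.4 CPM. The 5 myeloid markers summed to 23.4 to 41.8 and 30.5 to 88.1 CPM, and the 6 red cell precursor markers to 0.442 to 17.4 and 9.02 to 181 CPM. No listed marker was at 0 in all libraries, and the part of these other cells in the results below was not tested. In RNA of many cells, a change within every cell and a change in the mix of cells cannot be told apart, nor can fewer cells of a type and less RNA per cell.

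Psi, the fraction of reads that include a node, was given by the authors as a single value per group. Without values per library its differences have no spread between libraries and were not tested here, and the probability that the authors give for each difference was not used. The widest difference among the 30 nodes was the 87-base exon of Poldip3, which was at 0.801 with the control guide and 0.565 with the Tardbp guide, a difference of -23.6 percentage points. Of all 98533 core exon nodes, 87 had a more negative difference. The 60-base exon of Eif4h went the other way, from 0.478 to 0.571, 9.30 points higher, and 471 core exons had a more positive difference. The 172-base coding exon of Dnajc5 (node 7, chr2:181548670-181548841, exon 4 of 5 in Dnajc5-201) was at 0.937 and 0.881, a difference of -5.61 points. Its length is 1 base over a multiple of 3. These are the 3 core exons of the 16 in these genes whose difference was over 0.05 in size, where 3.53% of all core exons were. The other core exons of these genes were held almost always, at 0.98465 or more in both groups. The exception was Dnajc5 node 4, an exon of the 5′ untranslated part that was at 0.166 and 0.164. Poldip3 thus had 1 core exon that differed widely among 6 neighbours that stayed within 0.005, and Eif4h had 1 among 4.

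**Figure D1:**
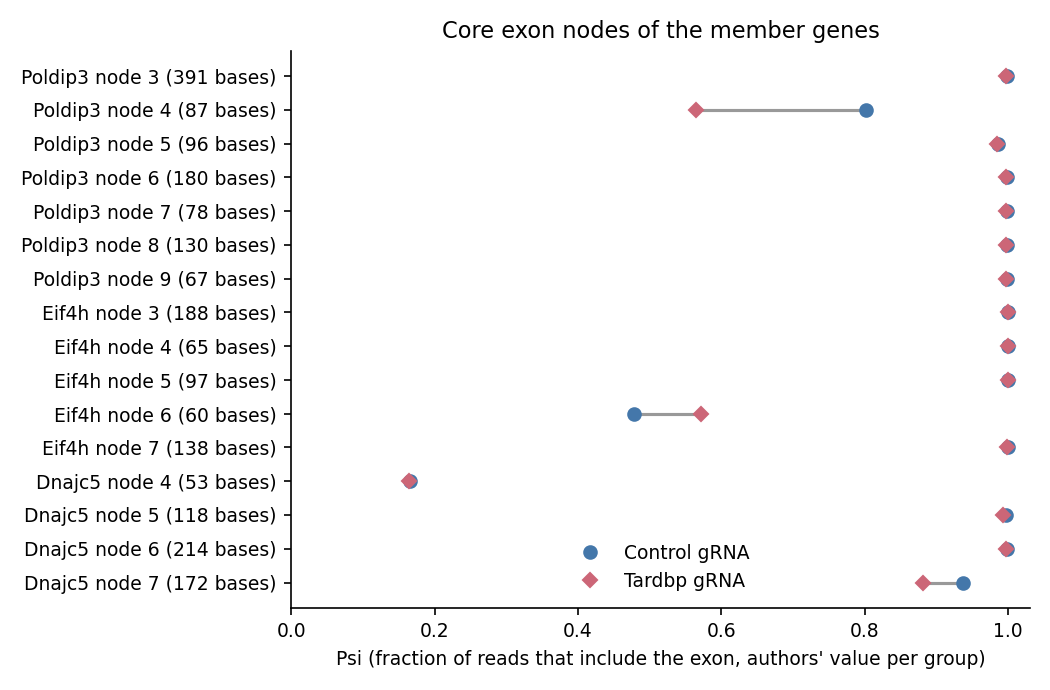
Psi of the 16 core exon nodes of Poldip3, Eif4h and Dnajc5 in Control gRNA (circles) and Tardbp gRNA (diamonds), as the authors' value per group, with the node's length in bases. The Poldip3 87-base exon moves from 0.801 to 0.565 and the Eif4h 60-base exon from 0.478 to 0.571, while most other exons stay near 1.

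Past a difference of 0.1, the study's own size limit, there was 1 of the members' 30 nodes, where 4.7% of all nodes were, and 1 of their 16 core exons, where 0.932% of all core exons were. Past 0.05 there were 6 of 30, against 9.65% of all nodes, and past 0.2 there was 1 of 30, against 1.67%. The median size of the difference was 0.00308 over the 30 nodes and 0.00545 over all nodes. Of the 30, 21 were lower and 9 were higher in Tardbp gRNA, and 18 stayed within 0.005. This lean is not particular to these genes, since 67537 of all 98533 core exons had a difference below -4e-05. The direction over nodes of all types was not counted.

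Poldip3 (ENSMUSG00000041815.14, chr15:83125976-83149384) had its exon measured per library through transcript counts, as the length-scaled counts of transcripts that hold the exon over those that span it. This rebuilt inclusion of the 87-base exon ran from 86.7% to 93.6% in Control gRNA, with a median of 89.6%, and from 70.3% to 87.1% in Tardbp gRNA, with a median of 80.8%. Of the 8 Tardbp gRNA libraries, 7 were below every Control gRNA library, and the highest, replicate 4, lay just inside the Control range. The means were 89.6% ± 2.13 and 80.7% ± 5.55 (SD, n = 8 per group), and the spread was wider with the Tardbp guide. An exact two-sided permutation test over the 16 libraries gave p = 0.000311, where 0.000155 is the smallest value 8 against 8 can give. In the limma fit over all 17315 nodes that could be rebuilt, the difference of -0.0889 (SE 0.0206) had an adjusted p of 0.0654 and was not called. Of the members' 30 nodes 5 could be rebuilt, and none was called by limma, with 2 at an unadjusted p under 0.05. How many of all nodes reach that unadjusted p was not counted. Over all nodes 0.237% were called, and 0.647% without the limit on size. No member node had groups that did not overlap, which 0.416% of all nodes had. Psi and rebuilt inclusion pointed the same way for this exon, and the difference was -23.6 points by Psi and -8.89 points by rebuilt inclusion.

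**Figure D2:**
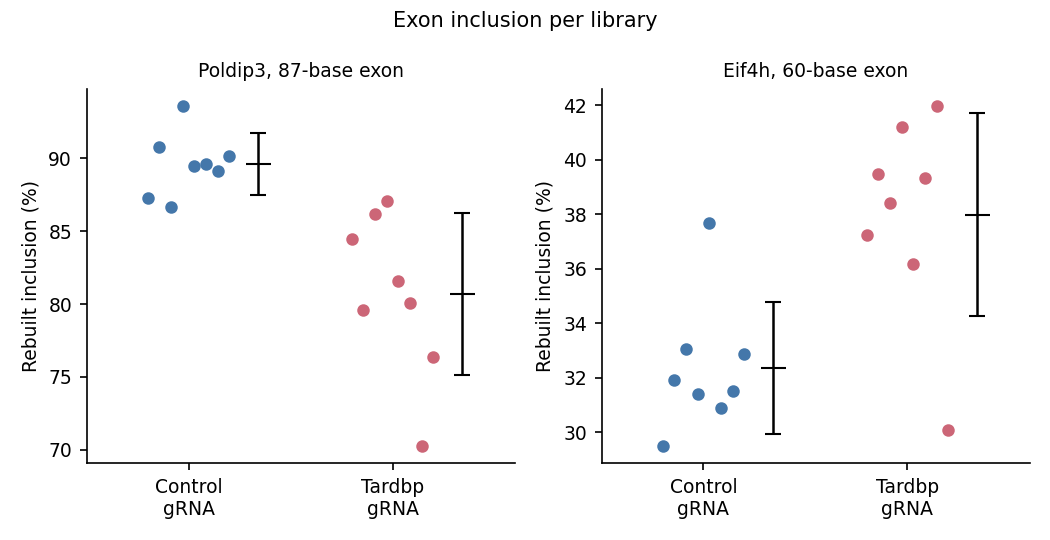
Rebuilt inclusion in percent of the Poldip3 87-base exon (left) and the Eif4h 60-base exon (right) in each library (points), with mean and SD (bars, n = 8 per group); the vertical axes do not start at 0. For Poldip3, 7 of 8 Tardbp gRNA libraries lie below all Control gRNA libraries, and for Eif4h 5 of 8 lie above them, with Tardbp gRNA replicate 8 at 30.1%.

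Poldip3-202, the coding transcript without the exon, took 6.14% to 12.8% of the gene's counts in Control gRNA, with a median of 9.93%, and 12.2% to 28.8% in Tardbp gRNA, with a median of 18.4%. For Poldip3 and Eif4h alike, shares, rebuilt inclusion and the ratio of the 2 transcripts come from the same counts and are not separate results. Of the 8 Tardbp gRNA libraries, 7 had a Poldip3-202 share above every Control gRNA library. Its mean share was 1.86 times as high in Tardbp gRNA, at 9.96% ± 2.05 and 18.5% ± 5.45 (SD, n = 8 per group). The difference of 0.0859 (SE 0.0202) had an adjusted p of 0.0248 by limma over all 32701 shares tested. Poldip3-201, with the exon, took 88.9% ± 2.01 and 79.9% ± 5.29, a difference of -0.0907 (SE 0.0196; limma adjusted p = 0.0154). These 2 of the members' 12 tested shares had an adjusted p under 0.05, as 4.45% of all shares had. With the replicate number as a block, the limma adjusted p of both shares was above 0.05. Neither share passed the study's limit of 0.1 on the size, so 0 of 12 were called, where 0.63% of all shares were. An unadjusted p under 0.05 was found for 5, among them the 2 main transcripts of Poldip3 and of Eif4h. The shares of such a pair mirror each other, and how many of all shares reach that p was not counted. Under diffSpliceDGE, the transcript test of edgeR, the limit of 0.1 was set on these same share differences, so its 0 calls were fixed beforehand. None of the 12 had groups that did not overlap, which 1.63% of all shares had.

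The Poldip3-202 share had limma adjusted p = 0.684 within libraries numbered 1 to 3 and 0.118 within those numbered 4 to 8. This division is named by no label and was taken from an earlier look at the expression of all genes. Within numbers 1 to 3 the share was 11.3% ± 2.12 and 15.9% ± 3.28 (SD, n = 3 per group), and within 4 to 8 it was 9.16% ± 1.73 and 20.2% ± 6.17 (SD, n = 5 per group). In both sets every Tardbp gRNA library was above every Control gRNA library of its set, while over all 16 libraries the groups overlapped. With 3 libraries per group such a separation gives an exact two-sided permutation p of 0.1. How many other shares separate within these sets was not counted, so the separation adds no support. The difference between the sets was not tested. When log2 RNA concentration was a covariate, the difference was 0.0846 with limma adjusted p = 0.764. The Poldip3-201 share had limma adjusted p = 0.625 within numbers 1 to 3, 0.103 within 4 to 8 and 0.764 with RNA concentration.

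In level, Poldip3-201 and Poldip3-202 differed in direction, and Poldip3-201 passed the test. Poldip3-201 lay at 165.6 to 192.3 CPM in Control gRNA and at 111.5 to 139.3 CPM in Tardbp gRNA, with no overlap, and it fell to 69.9% of the Control mean (log2 fold change -0.52, SE 0.0504, edgeR adjusted p = 5.25e-06). Poldip3-202 lay at 12.7 to 25.7 CPM in Control gRNA and at 17.7 to 46.0 CPM in Tardbp gRNA, with 5 of 8 above every Control gRNA library. Its log2 fold change was 0.55 (SE 0.192), with an edgeR adjusted p of 0.0614. It passed the test in 2 of the 16 fits that left out 1 library, with edgeR adjusted p = 0.0303 without Tardbp gRNA replicate 3 and 0.0334 without replicate 4, and the highest was 0.128 without replicate 7. It also passed by DESeq2 (adjusted p = 0.037) and with the M or F letter as a covariate (edgeR adjusted p = 0.0279). Within libraries numbered 1 to 3 the log2 fold change was 0.13 (edgeR adjusted p = 0.908) and within 4 to 8 it was 0.77 (edgeR adjusted p = 0.0793). The ratio of Poldip3-202 to Poldip3-201 counts was 0.112 ± 0.0253 and 0.237 ± 0.0882 (SD, n = 8 per group), 2.11-fold higher in Tardbp gRNA (exact two-sided permutation p = 0.000311 on the log2 ratio). The other kept transcripts, Poldip3-205 and Poldip3-206, retain introns and stayed at or below 2.08 CPM in every library (edgeR adjusted p = 0.85 and 0.749).

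**Figure D3:**
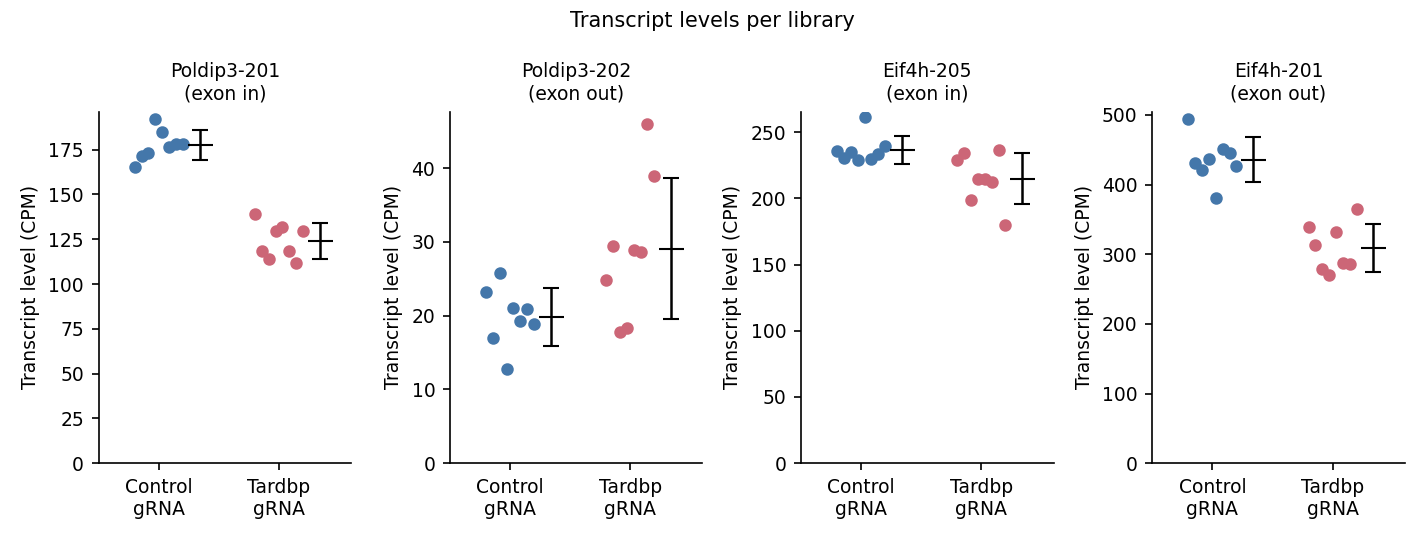
Level in CPM of Poldip3-201 and Eif4h-205, which hold the exon, and Poldip3-202 and Eif4h-201, which skip it, in each library (points), with mean and SD (bars, n = 8 per group). Poldip3-201 and Eif4h-201 show no overlap between the groups, while Poldip3-202 and Eif4h-205 do.

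The summed counts of Poldip3 lay at 179.3 to 207.2 CPM in Control gRNA and at 141.1 to 169.5 CPM in Tardbp gRNA. The gene fell to 80.2% of the Control mean (log2 fold change -0.32, SE 0.0433, edgeR adjusted p = 9.02e-06). Of the start site nodes, the outer 53 bases (node 1) had a Psi of 0.646 and 0.733 and the next 137 bases (node 2) of 0.353 and 0.266. Poldip3-202 is annotated to start in node 2 and Poldip3-201 in node 1, so node 1, where Psi was higher in Tardbp gRNA, lies outside Poldip3-202.

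Of 19 genes listed as partners of Poldip3 in mRNA export and S6 kinase signalling, 18 symbols were found, and Zc3h11a names 2 gene identifiers. Of the 19 identifiers tested, 12 fell, 1 rose and 6 were not called by edgeR, with a median log2 fold change of -0.21. Over all 16650 tested genes 46.7% were called and the median was 0.05. The cap-binding subunit Ncbp1 went from 257.5 to 191.4 CPM (log2 fold change -0.43, SE 0.0408, edgeR adjusted p = 2.13e-07). The export subunit Thoc6 had -0.46 (SE 0.066, edgeR adjusted p = 1.60e-05), and the export receptor Nxf1 -0.21 (SE 0.0331, edgeR adjusted p = 5.19e-05). Rps6kb1, the S6 kinase that Poldip3 binds, had -0.32 (SE 0.0597, edgeR adjusted p = 0.000266). Alyref, the export adaptor, was at 57.4 and 68.6 CPM (log2 fold change 0.26, SE 0.265, edgeR adjusted p = 0.45). Thoc7 was the member that rose, by 0.13 on the log2 scale (SE 0.0495, edgeR adjusted p = 0.044).

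Eif4h (ENSMUSG00000040731.13, chr5:134619721-134639490) had a higher mean inclusion of its 60-base exon in Tardbp gRNA by both Psi and rebuilt inclusion, without passing the test. Rebuilt inclusion ran from 29.5% to 37.7% in Control gRNA, with a median of 31.7%, and from 30.1% to 42.0% in Tardbp gRNA, with a median of 38.9%. Tardbp gRNA libraries were above all Control gRNA libraries in 5 of 8 cases, and replicate 8 lay near the bottom of the Control range. The means were 32.4% ± 2.43 and 38.0% ± 3.71 (SD, n = 8 per group; exact two-sided permutation p = 0.00559). The difference of 0.0563 (SE 0.0154) had an adjusted p of 0.139 by limma over all rebuilt nodes and was not called. Leaving out 1 library passed the threshold in 1 of 16 fits, without Tardbp gRNA replicate 8, where it was 0.0676 with limma adjusted p = 0.0165, and the highest was 0.239. With log2 RNA concentration as a covariate the difference was 0.0282 (limma adjusted p = 1).

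The share of Eif4h-205, the transcript with the exon, ran from 32.3% to 40.6% in Control gRNA, with a median of 34.4%, and from 32.8% to 45.0% in Tardbp gRNA, with a median of 41.8%. The highest Control gRNA library, replicate 5, stood apart from its group, whose other libraries reached 35.8%. The means were 35.1% ± 2.47 and 40.9% ± 3.79 (SD, n = 8 per group), a difference of 0.058 (SE 0.0157) with limma adjusted p = 0.0503, just over the threshold of 0.05. Eif4h-201, which skips the exon, took 64.4% ± 2.51 and 58.5% ± 3.88 (limma adjusted p = 0.0509 for a difference of -0.0591, SE 0.016). Without Control gRNA replicate 5 the Eif4h-205 difference was 0.0659 (limma adjusted p = 0.0253), and without Tardbp gRNA replicate 8 it was 0.0696 (limma adjusted p = 0.00401), the 2 of 16 such fits that passed, with 0.0989 the highest. With log2 RNA concentration as a covariate it was 0.0295 (limma adjusted p = 0.946).

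In level, the skipping transcript of Eif4h passed the test and the holding transcript did not. Eif4h-201 lay at 380.1 to 493.8 CPM in Control gRNA and at 269.6 to 365.3 CPM in Tardbp gRNA, with no overlap, and fell to 70.8% of the Control mean (log2 fold change -0.50, SE 0.0659, edgeR adjusted p = 6.66e-05). Eif4h-205 lay at 228.8 to 261.6 CPM and at 179.7 to 236.4 CPM, 90.8% of the Control mean, with an edgeR adjusted p of 0.0881 (log2 fold change -0.14, SE 0.053). The ratio of Eif4h-205 to Eif4h-201 counts was 0.547 ± 0.0629 and 0.705 ± 0.105 (SD, n = 8 per group), 1.29-fold higher in Tardbp gRNA (exact two-sided permutation p = 0.00544 on the log2 ratio). So the exon-holding form of Eif4h was not higher in level in Tardbp gRNA, whereas the exon-skipping form of Poldip3 was higher in mean. Summed over transcripts, Eif4h lay at 638.6 to 689.7 CPM and at 478.1 to 563.4 CPM, and fell to 80.3% of the Control mean (log2 fold change -0.32, SE 0.0353, edgeR adjusted p = 1.03e-06). The 3 other transcripts retain introns and stayed at or below 2.81 CPM in every library.

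**Figure D4:**
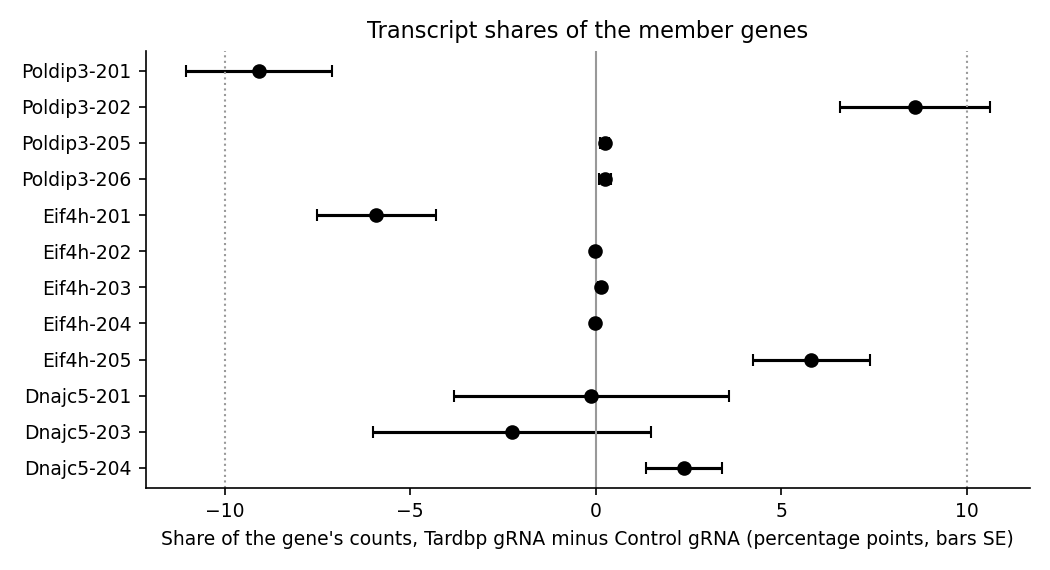
Difference in the share of the gene's counts (Tardbp gRNA minus Control gRNA, percentage points) for the 12 tested transcripts of Poldip3, Eif4h and Dnajc5, with SE from limma; dotted lines mark the limit of 10 points. Poldip3-201 and Poldip3-202 lie nearest the limit, Eif4h-201 and Eif4h-205 between it and 0, and the bars of Dnajc5-201 and Dnajc5-203 cross 0.

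Of 10 partners of Eif4h in cap-dependent initiation, all were tested, 6 fell, 0 rose and 4 were not called by edgeR, 60% called against 46.7% of all tested genes. Their median log2 fold change was -0.30 against 0.05 over all genes. The scaffold Eif4g1 went from 288.2 to 152.0 CPM (log2 fold change -0.92, SE 0.0919, edgeR adjusted p = 3.21e-07). The helicase Eif4a1, which Eif4h assists, had -0.58 (SE 0.056, edgeR adjusted p = 2.54e-07), and Eif4b, the helicase cofactor most like Eif4h in role, had -0.53 (SE 0.0545, edgeR adjusted p = 4.89e-07). The cap-binding protein Eif4e had -0.21 (SE 0.0435, edgeR adjusted p = 0.000652). The poly(A)-binding protein Pabpc1 was at 437.5 and 462.3 CPM (edgeR adjusted p = 0.21).

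Dnajc5 (ENSMUSG00000000826.16, chr2:181520485-181555133) changed in level, with no share called. The gene lay at 105.1 to 134.4 CPM in Control gRNA and at 86.3 to 96.8 CPM in Tardbp gRNA, with no overlap. It fell to 75.5% of the Control mean (log2 fold change -0.41, SE 0.0473, edgeR adjusted p = 1.68e-06). Of its coding transcripts, Dnajc5-201 fell by 0.44 on the log2 scale (SE 0.113, edgeR adjusted p = 0.013) and Dnajc5-203 by 0.54 (SE 0.161, edgeR adjusted p = 0.0292). They encode the same coding length of 594 bases and differ in the 5′ exon of 53 bases (node 4) and in the 3′ end. Control gRNA replicate 1 had 22.4 CPM of Dnajc5-203, where the other Control gRNA libraries had 49.3 to 68.7 CPM, and without Control gRNA replicate 1 the log2 fold change was -0.67 (edgeR adjusted p = 3.87e-05). The call of Dnajc5-203 was lost in 7 of the 16 fits that left out 1 library, those without Control gRNA replicate 2, 3, 5 or 7 or Tardbp gRNA replicate 1, 5 or 6, with edgeR adjusted p from 0.0503 to 0.0574.

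Dnajc5-204, annotated as a substrate of nonsense-mediated decay, took 10.3% to 17.9% of the counts in Control gRNA, against 12.8% to 18.5% in Tardbp gRNA. Its mean share was 13.6% ± 2.45 and 15.97% ± 1.62 (SD, n = 8 per group), with limma adjusted p = 0.241. Its level was 16.9 ± 2.63 and 14.6 ± 1.53 CPM (SD, n = 8 in each), with edgeR adjusted p = 0.218. Inclusion of the 53-base exon was rebuilt at 28.3% to 61.5% in Control gRNA, against 43.2% to 54.7% in Tardbp gRNA (limma adjusted p = 0.87), where Psi gave 0.166 and 0.164. The 172-base exon could not be rebuilt per library, because no annotated transcript that spans it leaves it out, so its lower Psi has no replicate check. At the 3′ end, the middle node (2642 bases) had a Psi of 0.599 and 0.545, the nearer (318 bases) 0.32 and 0.352, and the outermost (2901 bases) 0.081 and 0.103.

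Of 8 partners of Dnajc5, 5 were tested by edgeR, and 2 rose, 2 fell and 1 was not called, where 46.7% of all tested genes were called. Its chaperone Hspa8 went from 3669 to 2507 CPM (log2 fold change -0.55, SE 0.138, edgeR adjusted p = 0.00305), and the co-chaperone Sgta had -0.28 (SE 0.0547, edgeR adjusted p = 0.00036). The vesicle fusion proteins Vamp2 and Snap23 rose by 0.51 (SE 0.0803, edgeR adjusted p = 4.34e-05) and 0.26 (SE 0.0691, edgeR adjusted p = 0.00501). Dnajc5b and Dnajc5g, its relatives, were at 0 in every library.

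Sort1 (ENSMUSG00000068747.14, chr3:108284082-108361511) was close to undetected. Its estimated count was 0 to 34 in Control gRNA, against 0 to 29 in Tardbp gRNA, and it was 0 in 3 Control gRNA libraries and 1 Tardbp gRNA library. If counts were independent, a count of 0 would allow up to 3 counts, for counting error only. That is 0.0328 to 0.0389 CPM in those Control gRNA libraries and 0.053 CPM in the Tardbp gRNA library. The counts run at 1.89 to 2.02 per read pair, so the limit is higher. The medians were 0.0755 and 0.143 CPM, and the difference was not detectable at this depth (edgeR log2 fold change 0.12, SE 0.844, adjusted p = 0.926). Sort1-203, with 2574 coding bases in 21 exons, had counts in 3 Control gRNA and 6 Tardbp gRNA libraries. Sort1-201, with 2475 coding bases in 20 exons, was at 0 in all Tardbp gRNA libraries and had 4 counts in 1 Control gRNA library. The Psi table lists 2 nodes of Sort1, both at the 3′ end, at 0.908 and 0.884 and at 0.0949 and 0.123, and no internal exon. The splicing of Sort1 could therefore not be described in these cells. Of 15 sortilin relatives, ligands and retromer genes, 12 were tested by edgeR, of which 5 fell, 2 rose and 5 were not called, 58.3% called against 46.7% of all tested genes. The receptor relative Sorl1 was at 50.2 and 51.5 CPM (edgeR adjusted p = 0.758). Progranulin (Grn) rose by 0.25 (SE 0.0732, edgeR adjusted p = 0.00994), and the retromer subunit Vps35 fell by 0.47 (SE 0.0528, edgeR adjusted p = 1.03e-06), on the log2 scale.

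Set side by side, 3 of the 4 genes were called by edgeR, all lower, where 46.7% of all tested genes were called and 23.3% were called lower. Their libraries did not overlap in CPM between groups, which holds for 16.9% of all genes. Of the 12 tested transcripts, 4 were called, all lower, where 16.6% of all transcripts were called. For 2 of them, Poldip3-201 and Eif4h-201, the libraries did not overlap, which holds for 5.77% of all transcripts. The Poldip3 transcript that fell without overlap holds its exon, and the Eif4h transcript that did so skips it. Per length, as TPM, computed here from counts divided by transcript length and scaled to the same total in every library, the order was Eif4h at 441.5 ± 10.1, Poldip3 at 100.1 ± 6.53, Dnajc5 at 44.8 ± 5.81 and Sort1 at 0.0361 ± 0.0455 (SD, n = 8) in Control gRNA. In Tardbp gRNA it was the same, at 337.2 ± 25.2, 77.9 ± 5.04, 32.3 ± 1.35 and 0.0359 ± 0.0285 TPM (SD, n = 8). No neighbours in that order overlapped in either group. In TPM the libraries of the groups did not overlap for Poldip3 and Eif4h, but did for Dnajc5, at 32.1 to 51.2 TPM in Control gRNA, against 29.7 to 34.2 TPM in Tardbp gRNA, with 3 of 8 below every Control gRNA library.

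**Figure D5:**
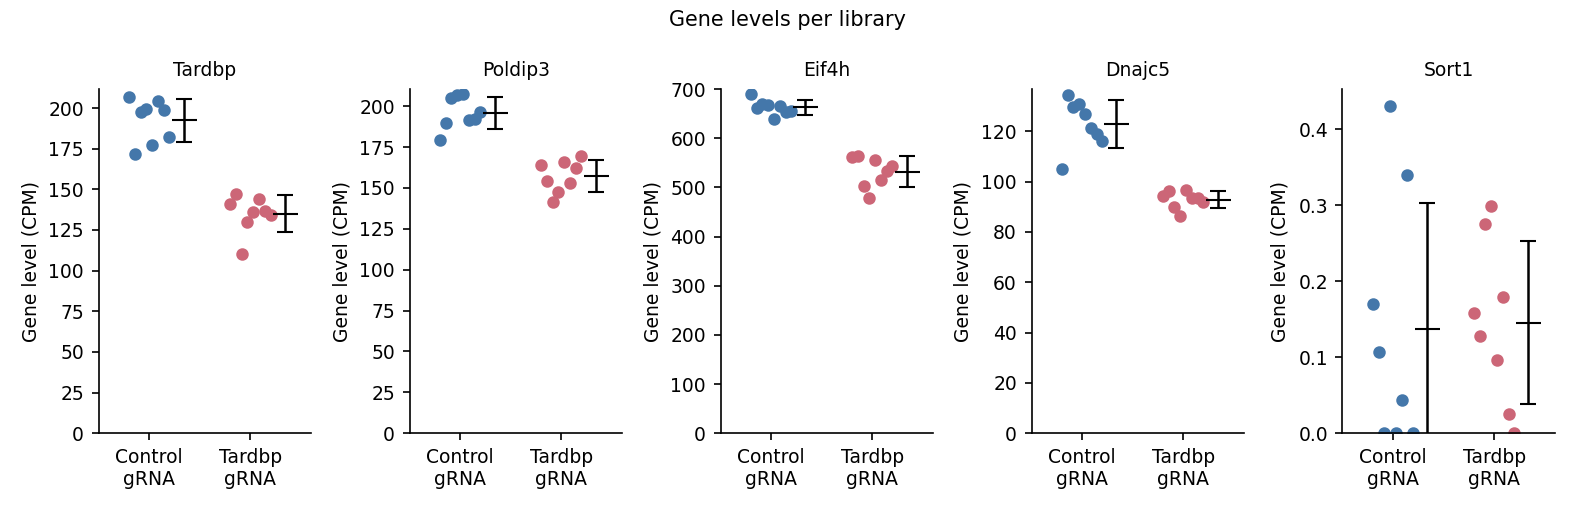
Level in CPM of Tardbp and the 4 genes in each library (points), with mean and SD (bars, n = 8 per group; the lower bar of Sort1 is clipped at 0 where SD exceeds the mean). Tardbp, Poldip3, Eif4h and Dnajc5 are lower in all Tardbp gRNA libraries than in any Control gRNA library, and Sort1 stays at or below 0.43 CPM.

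Among the 8 Tardbp gRNA libraries no relation of the shares to Tardbp mRNA level was detected. Tardbp CPM does not measure TDP-43 protein, which by the study's immunoblot was not made in cells given the Tardbp guide. The relations therefore do not measure a dependence on the amount of protein. Tardbp CPM and the Poldip3-202 share had Pearson r = 0.397 (exact permutation p = 0.319) and Spearman rho = 0.476 (exact permutation p = 0.243), and r was 0.132 without the 2 libraries farthest from the median of Tardbp. Tardbp CPM and the Eif4h-205 share had r = 0.048 (exact permutation p = 0.895) and rho = 0.19 (exact permutation p = 0.665), and r was 0.074 without those 2. The Poldip3-202 and Eif4h-205 shares had r = -0.055 (exact permutation p = 0.891) and rho = 0.048 (exact permutation p = 0.935) in Tardbp gRNA, with r of -0.549 without the 2 farthest. In Control gRNA they had r = -0.023 (exact permutation p = 0.951) and rho = -0.024 (exact permutation p = 0.977), with r of -0.34 without the 2 farthest. Over these 4 relations the Benjamini-Hochberg adjusted p was 0.951 for each r and 0.972 or more for each rho. Sets of 3 and 5 libraries are too few to repeat this within numbers 1 to 3 and 4 to 8. The deposited letter M or F was tested for an interaction with the guide, and no member was called, with edgeR interaction p between 0.0996 and 0.963 for the 4 genes (adjusted p = 0.9997 for each).

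The genes whose level varied most like each member within groups were found by Pearson r of log2 CPM after group means were subtracted, over 16 libraries and 8976 genes. For Poldip3 they were Slc38a10 (r = 0.934), Akna (0.914) and Akt2 (0.911), with log2 fold changes of -0.35, -0.04 and -0.13 (edgeR adjusted p = 6.98e-05, 0.63 and 0.0499). For Eif4h they were Lig1 (0.909), Mcm5 (0.889) and Ssr1 (0.872), and each of these had a negative log2 fold change, from -0.76 for Mcm5 to -0.39 for Ssr1. For Dnajc5 they were Slc44a2 (0.903), Ttc39b (0.892) and Gzf1 (0.881), with log2 fold changes of 0.07, 0.10 and -0.10, none of them called by edgeR (adjusted p = 0.435, 0.172 and 0.338). These r values are descriptions over libraries that share preparation and depth. For Sort1 the highest was Yy1 (0.73), at counts too low for the value to be read.

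A further 21 genes described elsewhere as spliced in dependence on TDP-43 were listed for comparison, and 19 passed the filter on low counts. Of these, 10 fell, 2 rose and 7 were not called by edgeR (63.2% called against 46.7% of all tested genes, median log2 fold change -0.23). The Rab exchange factor Madd went from 190.4 to 130.6 CPM (log2 fold change -0.54, SE 0.0908, edgeR adjusted p = 7.9e-05) and the cohesin subunit Stag2 from 110.6 to 80.9 CPM (-0.45, SE 0.0757, edgeR adjusted p = 8.4e-05). The deubiquitinase Usp15 had the lowest value, -0.95 (SE 0.0424, edgeR adjusted p = 1.79e-10). In Psi, 16 of the 417 nodes of these genes differed by over 0.1, in 7 genes, where 4.7% of all nodes did. So did 4 of their 362 core exons, in Fnip1 (2), Herc2 (1) and Synj2bp (1), where 0.932% of all core exons did. A 172-base exon of Herc2 was at 0.892 and 0.576 and an 86-base exon of Fnip1 at 0.906 and 0.699. Of 77 of their transcript shares 1 was called by limma, in Synj2bp, where 0.63% of all shares were. Psi is listed for Madd at 0.76 and 0.693 for its widest node, and for Usp15 at 0.464 and 0.562, neither past 0.1.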

How the data were processed

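The 16 libraries of sorted cells were prepared with SMART-Seq v4 and Nextera XT, a kit that does not mark strand. Per the labels, the authors aligned reads to mm10 with HISAT2 2.1.0 and used SAMtools 1.9 and StringTie 2.1.0. The deposited estimated counts per gene and transcript are whole numbers with no normalization. They came to 1.89 to 2.02 per deposited count of read pairs, and PCR copies are counted, so counts are not independent molecules. The authors ran Whippet and deposited Psi as a fraction per group. The Psi columns carry only letters, and Psi_A was taken as Control gRNA and Psi_B as Tardbp gRNA. This rests on the order of C and T in the name of the deposited Psi data. It also rests on the study's supplementary data, which head the values of the same nodes Control and Tardbp KO. The columns of the authors' Psi difference and its probability were not used. Also deposited were a letter M or F, under the header sex, and an RNA concentration with no unit. In either count table, 10 columns matching none of these samples were left unused. Lines that name no annotated gene held 0.0836 to 0.132% of counts and were left out.

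Genes and transcripts were tested with edgeR 4.0.16 (quasi-likelihood, TMM, minimum count 10, minimum total 15, proportion 0.7) in R 4.3.3. Shares and rebuilt inclusion (mean count over 50) were tested with limma 3.58.1. Calls were two-sided and needed a p under 0.05 after Benjamini-Hochberg adjustment, and for shares and inclusion a difference over 0.1. DESeq2 1.42.0 and edgeR with RLE scaling were alternatives. Permutation tests used SciPy 1.17.1 in Python 3.11.15 over 12870 splits, and their p is not adjusted. Per the study each library came from its own recipient, and p-values measure the spread between recipients. Recipients of a group may share donor cells and an electroporation, so p-values may not cover the spread between electroporations. Replicate numbers were not used to pair the libraries in the main fits, and whether they mark pairs is not settled. The edgeR fits of genes and transcripts and the limma fits of shares and rebuilt inclusion were tested on simulated data. Names and coordinates are from GENCODE M21 (GRCm38). No other annotated gene with more than 1 count in a library overlaps the 4 genes. The genes named were the 4 members with every tested transcript, Tardbp, listed partners and TDP-43-dependent genes, and the 3 genes most alike, and the members and lists were chosen with earlier results of these data known.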

Additional observations from a re-analysis of the deposited data

Results flagged for a closer look

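In 42 groups of 8 values, 9 had 1 library far from the other 7, where chance gives about 1 in 20, here 2.1. The values were gene CPM, transcript shares and rebuilt inclusion of the members without Sort1, and Tardbp CPM. Many of these values are not independent, since shares of a gene sum to 1 and inclusion is made from them. Tardbp in Tardbp gRNA replicate 3 was at 110.4 CPM, with the others at 129.8 to 147.2. In Control gRNA replicate 1, Dnajc5-203 took 20.2% of the gene's counts, with the others at 37.7% to 50.8%, and inclusion of the 53-base Dnajc5 exon was 28.3%, with the others at 48.2% to 61.5%. In Control gRNA replicate 5, Eif4h-201 took 59.0% (others 63.8% to 67.5%) and Eif4h-205 40.6% (others 32.3% to 35.8%), and inclusion of the 60-base exon was 37.7% (others 29.5% to 33.0%). The remaining values rest on few counts. In their groups the other 7 values were equal, so any departure is flagged and the rate of 1 in 20 does not apply. Poldip3 node 5 was included at 99.8% in Control gRNA replicate 6, where the other Control gRNA libraries were at 100%. Dnajc5 node 3 was included at 0.365% in Control gRNA replicate 8 and at 0.114% in Tardbp gRNA replicate 4, where the others of each group were at 0.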

How the results depend on the processing

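Alternatives were another scaling or tool, no filter on low counts, covariates, subsets of libraries, other limits on size, and leaving out each library. The direction of the gene log2 fold changes of Poldip3, Eif4h and Dnajc5, of the Poldip3 and Eif4h exon inclusions and of the Poldip3-202 and Eif4h-205 shares held in all of them. Within libraries numbered 1 to 3, 1 gene (Eif4h) and 0 transcripts of the members were called by edgeR, and the Poldip3 and Dnajc5 genes had adjusted p = 0.0555 and 0.0527, with 3 libraries per group, and all genes called fell to 1696. With log2 RNA concentration as a covariate 1 transcript was called (Poldip3-201), and 2697 genes in all. Transcript shares called were 2 with no limit on size (chosen after seeing the data) and 1 with the M or F letter (Poldip3-201). Psi past 0.05 gave 6 nodes. The Poldip3-202 share was 0.0846 with RNA concentration, 0.11 within numbers 4 to 8 and 0.0457 within 1 to 3, none past the threshold. With RNA concentration the Eif4h exon was 0.0282 and the Eif4h-205 share 0.0295, against 0.0563 and 0.058 without it, and neither past the threshold. The Eif4h-205 share passed it on the arcsine scale (0.058, limma adjusted p = 0.0487) and with counts divided by length (0.0558, limma adjusted p = 0.0451). The Poldip3 exon passed it with the M or F letter (-0.0992, limma adjusted p = 0.0344). The cause of these changes was not tested. Leaving out each library in turn gave -0.0981 to -0.074 for the Poldip3 exon, 0.0506 to 0.0676 for the Eif4h exon, 0.0712 to 0.0949 for the Poldip3-202 share and 0.0522 to 0.0696 for the Eif4h-205 share.

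Correlations of the deviations of same-numbered libraries were -0.005 to 0.16, with 2 of 8 over 0.1 and 2 of 8 closest to their own number. Such values do not settle whether the numbers pair libraries by donor cells or preparation. With the replicate block 7645 genes were called against 7783, 3 transcripts of the members against 4 (without Dnajc5-203, edgeR adjusted p = 0.0638), and the shares of Poldip3-202 (0.0859) and Poldip3-201 (-0.0907) had limma adjusted p = 0.0766 and 0.0583, both past the threshold without the block. Depth limits Sort1, with at most 34 counts in a library.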
